A study of Mus musculus with 12 samples.

Results

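The proteasome is the large protease that breaks down ubiquitin-tagged proteins in the cytosol and nucleus. Its 20S core particle is a barrel of stacked alpha and beta rings, and the beta subunits Psmb5, Psmb6 and Psmb7 carry the cutting sites. The 19S cap binds the ubiquitin tag with its non-ATPase subunits, and its ring of ATPases unfolds the substrate and opens the gate of the core. In the liver, as in other tissues, the released peptides return amino acids to the cell, and the transcription factor Nfe2l1 is known to raise proteasome genes together when proteasome activity is short. The genes described here are the protein-coding genes named Psma, Psmb, Psmc or Psmd with a number, and Psme1 to Psme4, without the inducible subunits Psmb8 and Psmb9. There were 41 such genes among the 36047 genes with a matched transcript, and 40 of them had a mean count of 10 or more over the mice and were tested. The gene left out of the tests was Psmb11, the thymus-specific beta subunit, with a mean count of 4.29.

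Liver RNA was sequenced from 12 male C57Bl/6J mice, 3 in each of 4 groups, after 7 days on the diets. RF.Ctrl and HF.Ctrl mice ate control diets with 18% and 60% of energy from fat, and RF.SAAR and HF.SAAR mice ate the matching sulfur amino acid restricted diets, in which methionine was lowered and glutamic acid added to keep nitrogen equal. None of the diets held cysteine, all mice were 5 to 6 months old and housed singly, and food was withdrawn 4 h before death. The study also gave its mice deuterium-enriched drinking water, to follow protein synthesis. The labels give each sample as a mouse and nothing on litters, and the spread between the 3 mice of a group is the error used throughout. Total estimated counts ran from 16203094 to 21230092 per mouse. All 7 hepatocyte markers were above 1 CPM (counts scaled to a common library size) in every mouse, with a summed level of 74390 to 91740 CPM. The 23 markers of pancreatic acinar cells summed to 5153 CPM in HF.Ctrl 2, 3501 in HF.SAAR 2 and 18260 in HF.SAAR 3, and to 1278 and 1509 CPM in RF.Ctrl 1 and HF.Ctrl 1, against 45.1 to 86.5 CPM in the other 7 mice. Erythroid markers summed to 561 to 657 CPM in RF.Ctrl mice and 352 to 407 in RF.SAAR mice, and to 391 to 443 in HF.Ctrl and 261 to 542 in HF.SAAR. Over both fat levels 1 of 5 erythroid and 1 of 4 stellate cell markers were called lower and 1 of 5 endothelial markers higher, while 0 of 7 Kupffer cell, 0 of 12 leukocyte, 0 of 4 cholangiocyte, 0 of 22 acinar and 0 of 7 hepatocyte markers were called. In that comparison 7.29% of all genes were called, 3.39% higher and 3.89% lower. Fits with a covariate for the acinar markers, or without the mice richest in them, are given below. The part of these cells in the results was not tested otherwise. In whole liver, fewer cells of a type and less RNA per cell cannot be told apart.

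The stretches before the start sites are shown first because Nfe2l1 and its relative Nfe2l2 are known to act through a short element, written TGACNNNGC, in front of proteasome genes. RefSeq (GRCm38.p6) gave a start site for 34 of the 41 genes, in 37 windows of 250 bases before the start. The element was found on either strand in 5 windows (13.5%), against 10.2% of all 32851 windows of the same length. Those 5 belonged to Psmb5, Psmb6, Psmc6, Psmd12 and Psmd9. The CCAAT box of NF-Y was found in 13 windows (35.14% against 33.85%), the element TGATGNAA bound by ATF4 with C/EBP factors in 1 window, of Psmd13 (2.7% against 3.45%), and the GC box GGGCGG in 21 windows (56.8% against 32.7%). These are matches of letters within a window and not sites of binding. Psmd9 is printed over the whole window, at chr5:123227940-123228189 on the plus strand, because it was the one gene of the 40 called below. The other 4 are printed around the element, for comparison with it. Capitals mark the element, and all run 5′ to 3′ on the strand of the gene.
Psmd9: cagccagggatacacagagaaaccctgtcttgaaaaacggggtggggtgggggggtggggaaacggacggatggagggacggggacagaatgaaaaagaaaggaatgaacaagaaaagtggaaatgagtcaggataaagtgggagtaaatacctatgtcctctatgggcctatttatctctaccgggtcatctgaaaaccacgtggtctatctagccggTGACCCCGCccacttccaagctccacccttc
Psmb5: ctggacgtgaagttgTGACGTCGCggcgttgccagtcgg
Psmb6: gcggactaaagagagTGACGGAGC
Psmc6: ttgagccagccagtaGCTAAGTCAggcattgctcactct
Psmd12: tctGCTGTGTCAcatttgcccccctca
The Psmb5 stretch lies at chr14:54618019-54618057 on the minus strand. Those of Psmb6 (chr11:70525333-70525356), Psmc6 (chr14:45329582-45329620) and Psmd12 (chr11:107479278-107479304) lie on the plus strand. The element begins 31 bases before the start in Psmd9, 47 in Psmb5 and 9 in Psmb6. In Psmc6 and Psmd12 it reads on the opposite strand and begins 227 and 247 bases before the start.

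Levels between genes are compared as TPM, the deposited abundance per transcript length, summed per gene and averaged over the 12 mice. The 4 most abundant genes were core subunits. The caspase-like beta subunit Psmb6 stood at 198.5 TPM (152.1 to 240.9), the trypsin-like Psmb7 at 194.3, the alpha subunit Psma6 at 193.8 and the beta subunit Psmb4 at 181.5, and the ranges of these 4 genes overlapped. The chymotrypsin-like Psmb5 stood at 122.9 TPM, and Psmb2 was the lowest of the beta ring at 70.8. Within the alpha ring, Psma2 was lowest of the 7 ubiquitous subunits, at 36.3 TPM. The ATPases ran from 55.9 TPM for Psmc4 to 108.1 for Psmc1. Among the non-ATPase subunits, the levels ran from 35.4 TPM for Psmd3 to 83.5 for the ubiquitin receptor Psmd4. The assembly chaperones of the cap, which leave the finished particle, were lower, with Psmd9 at 24.9, Psmd5 at 10.9 and Psmd10 at 7.06 TPM. Of the activators that can replace the cap, Psme1 and Psme2 form the PA28 ring and stood at 78.7 and 90.1 TPM. Psme3 (PA28 gamma, 20.5 TPM) and Psme4 (PA200, 16.1 TPM) were lower. The inducible subunit Psmb10 stood at 27.2 TPM. The testis-type alpha subunit Psma8 stood at 1.1 TPM, and Psmb11 between 0 and 0.145 TPM in the 12 mice.

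**Figure D1:**
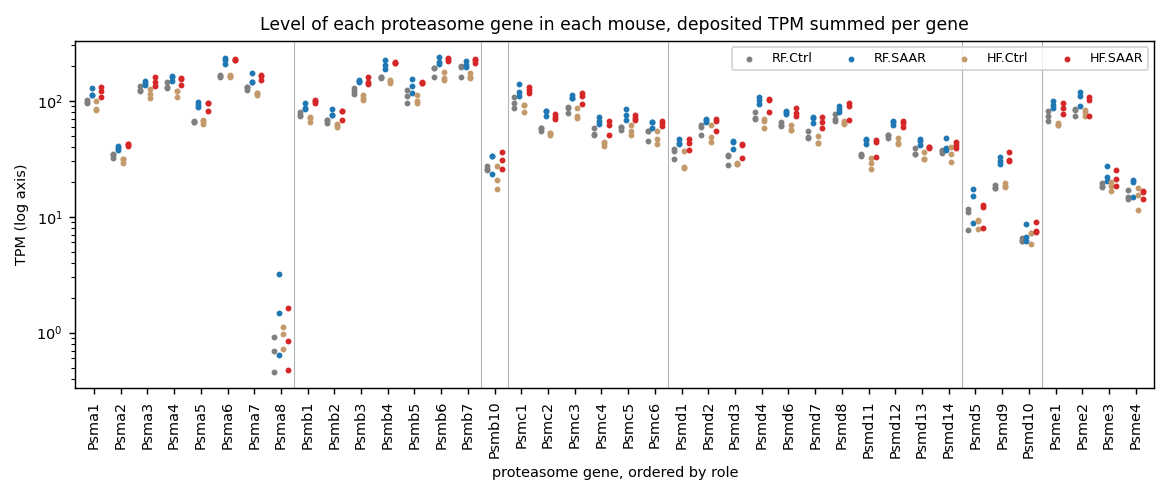
TPM of each of the 40 tested proteasome genes (log axis), with a point for each mouse coloured by group and genes ordered by role from the alpha ring at the left to the activators at the right. The highest genes are core subunits, led by Psmb6 at 198.5 TPM on average, though Psma2 at 36.3 TPM lies below most of the cap, and the chaperones, the last activators and Psma8 at 1.1 TPM sit lowest.

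For tests, counts were summed per gene, scaled by TMM factors, which set the bulk of genes equal between mice, and tested by edgeR's quasi-likelihood method, and p-values were adjusted over 13970 genes after Benjamini and Hochberg. A gene is called at an adjusted p under 0.05. On this scale few proteasome genes differed beyond the spread between mice. Restriction on the regular-fat diet gave 0 called genes of 40 (1, Psmd9, with an unadjusted p under 0.05; DESeq2 gave 0 calls), where 1.57% of all genes were called. An unadjusted p under 0.05 was found for 1958 of all 13970 genes. The median log2 fold change was 0.05 against 0.00 for all genes, and 26 of 40 were higher. Restriction on the high-fat diet also gave 0 called genes of 40 (1, again Psmd9, with an unadjusted p under 0.05; DESeq2 gave 0 calls), where 2.09% of all genes were called. On high fat 1785 of all 13970 genes had an unadjusted p under 0.05. There the median was 0.11 against 0.00, and 32 of 40 were higher. With both fat levels averaged, 1 of 40 was called, higher in restricted mice, and 5 had an unadjusted p under 0.05. Of all 13970 genes 7.29% were called in that comparison, 3.39% were called higher, and 2908 had an unadjusted p under 0.05. Its median was 0.08 against 0.00, with 30 of 40 higher. The 95% intervals of single genes were wider than these medians, as for Psmb5, with a log2 fold change of 0.09 ± 0.13 (SE).

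**Figure D2:**
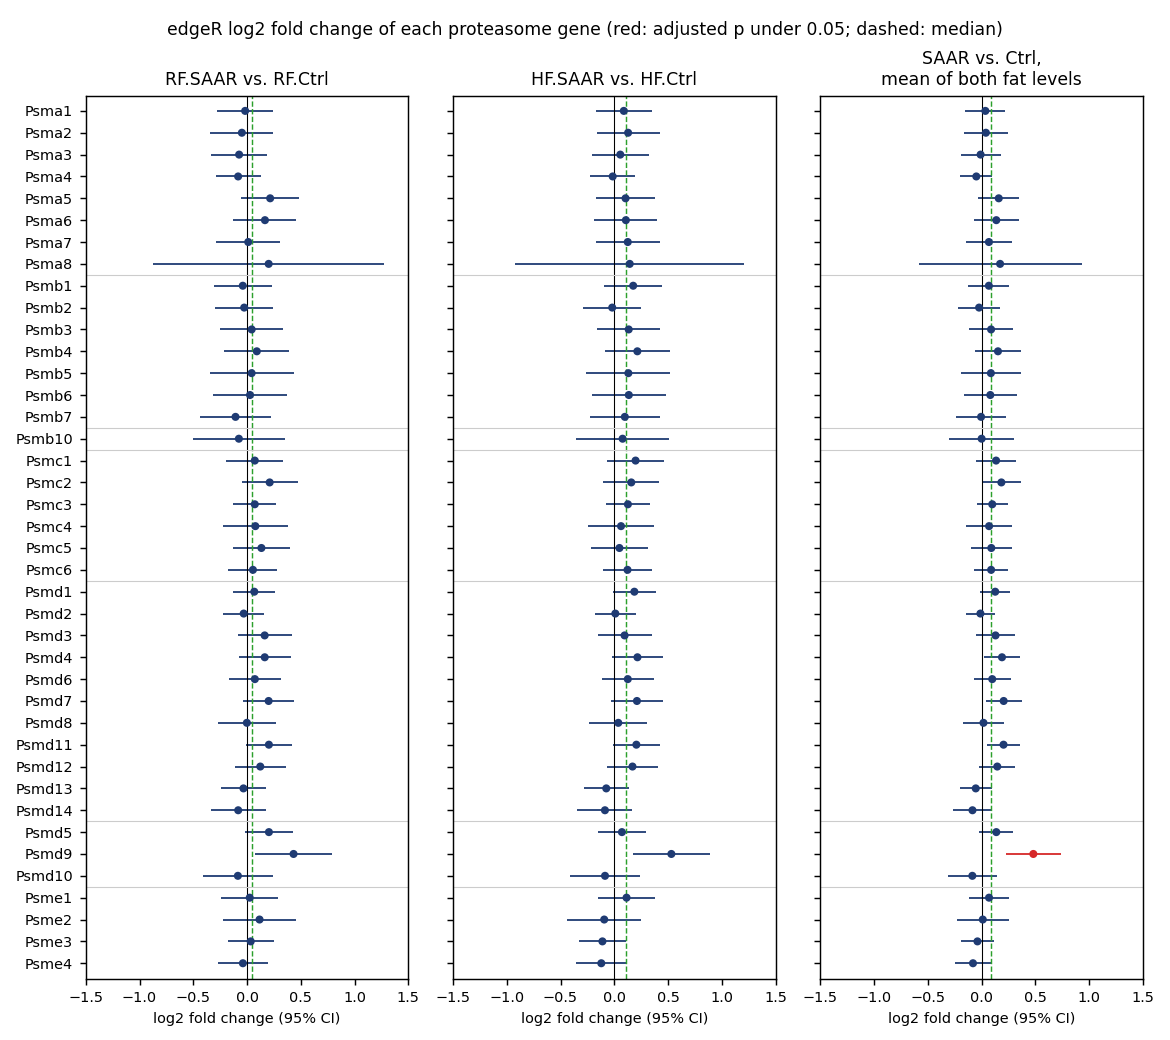
The log2 fold change of each of the 40 genes with its 95% confidence interval (edgeR), for restriction on regular fat, on high fat and averaged over both; red marks an adjusted p under 0.05 and the dashed line the median of the genes. Most intervals cross 0, the medians are 0.05, 0.11 and 0.08, and Psmd9 in the averaged comparison is the single red point.

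The called gene was Psmd9, a chaperone that helps to assemble the ATPase ring of the cap. The annotation places it at chr5:123169413-123250131 (GRCm38) on the plus strand. That span includes a transcript, Psmd9-206, that starts at 123169413, while the main transcript, Psmd9-201, starts at 123228190, the base after the window printed above. In TMM-scaled CPM it stood at 43.1, 37.3 and 36.3 in RF.Ctrl mice and 41.2, 61.5 and 54.8 in RF.SAAR mice. It stood at 40.5, 48.1 and 31.8 in HF.Ctrl mice and 62.8, 60.9 and 50.3 in HF.SAAR mice. On high fat all restricted mice were above all controls, and on regular fat RF.SAAR 1 lay among the controls. The log2 fold change was 0.43 ± 0.17 (SE) on regular fat (adjusted p = 0.25, edgeR), 0.53 ± 0.17 on high fat (adjusted p = 0.15) and 0.48 ± 0.12 for both (adjusted p = 0.026). The difference between the fat levels was 0.10 ± 0.24 (adjusted p = 0.9996). In its main transcript, Psmd9-201, which held 71.8% of the gene's TPM, the 6 control mice ran from 11.1 to 14.4 TPM and the 6 restricted mice from 18.2 to 25.4, on a scale where the median of all genes was itself 0.25 (log2) higher in restricted mice. The exons of that transcript shared no base with another annotated gene. The gene's other transcripts, Psmd9-206 among them, count toward the call and were not checked for this. Leaving out a single mouse moved the averaged log2 fold change between 0.41 and 0.56 and its adjusted p between 0.011 and 0.068. The call was lost without any one of 7 mice, namely RF.Ctrl 2, RF.Ctrl 3, RF.SAAR 2, RF.SAAR 3, HF.Ctrl 1, HF.SAAR 1 and HF.SAAR 2.

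The other chaperones of the cap were not called. Psmd5 stood at 29.1, 29.7 and 31.9 CPM in RF.Ctrl mice and 35.1, 32.3 and 36.9 in RF.SAAR mice, and its log2 fold change there was 0.20 ± 0.10 (adjusted p = 0.42). It was the 1 of 40 genes whose restricted mice were all above their controls on regular fat, where 8.61% of all genes were so placed. On high fat its value was 0.07 ± 0.10 (adjusted p = 0.85). Psmd10, the oncoprotein gankyrin, had 7.12 ± 0.41 CPM in RF.Ctrl mice, 6.71 ± 0.99 in RF.SAAR mice, 8.41 ± 0.63 in HF.Ctrl and 7.91 ± 0.83 in HF.SAAR (mean ± SD, n = 3), and an averaged log2 fold change of −0.09 ± 0.11 (adjusted p = 0.72, edgeR).

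In the ATPase ring all 6 genes, Psmc1 to Psmc6, had log2 fold changes above 0 on regular fat (0.05 to 0.21) and on high fat (0.05 to 0.20), and 0 of 6 were called. Psmc2 stood at 98.0, 92.7 and 97.2 CPM in RF.Ctrl mice and 97.1, 123.6 and 112.4 in RF.SAAR mice. On high fat it stood at 93.8, 111.4 and 85.3 CPM in HF.Ctrl and 109.7, 115.3 and 99.1 in HF.SAAR. The groups overlapped in each pair, with an averaged log2 fold change of 0.18 ± 0.09 (adjusted p = 0.24, edgeR). Psmc3, whose HF.SAAR mice (104.9 to 108.9 CPM) were all above the HF.Ctrl mice (93.4 to 103.3 CPM), had an averaged value of 0.10 ± 0.07 (adjusted p = 0.44). The averaged values of Psmc1, Psmc4 and Psmc5 were 0.13, 0.07 and 0.09.

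Among the 11 non-ATPase subunits 8 were higher in the averaged comparison, with a median of 0.13. Of these 11, 0 were called, and 3 had an unadjusted p under 0.05, namely Psmd4, Psmd7 and Psmd11. Of all 13970 genes, 2908 had such a p. Psmd11, a scaffold of the lid that stabilises the joined particle, stood at 77.4, 73.4 and 68.3 CPM in RF.Ctrl mice and 76.8, 89.4 and 86.0 in RF.SAAR mice. On high fat it stood at 68.0, 70.8 and 66.8 CPM in HF.Ctrl and 87.3, 72.5 and 77.3 in HF.SAAR, where the groups did not overlap. Its averaged log2 fold change was 0.20 ± 0.07 (adjusted p = 0.11 by edgeR and 0.039 by DESeq2). Psmd7, the lid partner of the deubiquitinase Psmd14, had 0.21 ± 0.08 (adjusted p = 0.15), and the ubiquitin receptor Psmd4 had 0.19 ± 0.08 (adjusted p = 0.19). The deubiquitinase itself, Psmd14, had −0.08 ± 0.08 (adjusted p = 0.64), and was the 1 gene whose HF.SAAR mice (42.9 to 46.3 CPM) were all below the HF.Ctrl mice (46.6 to 48.0 CPM), where 9.17% of all genes were so placed. The scaffold Psmd1 was higher in all HF.SAAR mice (100.8 to 109.5 CPM) than in all HF.Ctrl mice (85.8 to 97.3 CPM), with a log2 fold change on high fat of 0.19 ± 0.09 (adjusted p = 0.43). Psmd3, a lid scaffold, had 0.13 ± 0.08 averaged (adjusted p = 0.41). On high fat 5 of 40 genes (Psmd1, Psmd4, Psmd9, Psmd11 and Psmc3) had all restricted mice above all controls, where 9.09% of all genes did. Over both fat levels 0 of 40 had all 6 restricted mice above all 6 controls, where 1.98% of all genes did.

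In the core particle, 0 of 8 alpha and 0 of 7 beta subunits were called in any comparison, and the averaged medians were 0.05 and 0.08. Psmb5 stood at 87.8, 70.5 and 62.5 CPM in RF.Ctrl mice, 68.7, 94.9 and 63.9 in RF.SAAR, 84.5, 86.2 and 60.6 in HF.Ctrl and 81.2, 95.4 and 76.7 in HF.SAAR. The 4 groups overlapped. The averaged values of the other cutting subunits were 0.08 ± 0.11 for Psmb6 and −0.005 ± 0.107 for Psmb7 (adjusted p = 0.76 and 0.99). Psmb4 and Psma5 had the largest values of well-expressed core genes, 0.15 ± 0.10 and 0.16 ± 0.09 (adjusted p = 0.42 and 0.34). Psma6 and Psma7 had 0.14 ± 0.10 and 0.07 ± 0.10, Psma2 0.04 ± 0.10, Psmb1 0.07 ± 0.09 and Psmb2 −0.02 ± 0.09. Psma8, with 0.46 to 1.60 CPM, had 0.17 ± 0.35, the widest error of the 40. The inducible subunit Psmb10 had 25.8 ± 0.99 CPM in RF.Ctrl, 24.5 ± 3.11 with restriction, 24.6 ± 6.88 in HF.Ctrl and 26.0 ± 5.73 in HF.SAAR (mean ± SD, n = 3), with an averaged log2 fold change of 0.00 ± 0.14 (adjusted p = 0.999). In Psmb7 and Psmd13, 34.9% and 17.2% of the exon bases of the main transcript lie across from exons of Nek6 and Sirt3 on the other strand, 12.1% of those of Psmb5 are shared with Mir686 on the same strand, and a strand setting of the counting is not given in the sources used here.

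The activators had an averaged median of −0.01, and 0 of 4 were called. Psme4 was the largest in size among them, at −0.08 ± 0.08 (adjusted p = 0.62), and Psme1 and Psme2, which interferon raises together, had 0.07 ± 0.09 and 0.01 ± 0.11 (adjusted p = 0.73 and 0.97). Psme3 had −0.04 ± 0.07 (adjusted p = 0.83). On high fat 3 of the 4 were lower, and on regular fat 3 of the 4 were higher.

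Fat content was compared within each diet. In HF.Ctrl vs. RF.Ctrl, 0 of 40 were called by edgeR (0 at an unadjusted p under 0.05), where 0.0% of all genes were called, and the median was 0.004. In HF.SAAR vs. RF.SAAR, 0 of 40 were called (0 at an unadjusted p under 0.05), where 0.0501% of all genes were called, and the median was 0.05. For the interaction of diet and fat, 0 of 40 were called (0 at an unadjusted p under 0.05), where 0.00716% of all genes were called. Its median was 0.05, with 26 of 40 above 0. In these comparisons, in turn, 519, 792 and 443 of all 13970 genes had an unadjusted p under 0.05.

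The proteasome genes varied together from mouse to mouse. After removal of the group means, the median Pearson's r over the 780 pairs of genes was 0.63 across the 12 mice, and 82.1% of pairs were above 0. Over all pairs of the 7632 genes in the same range of CPM the median was 0.006. The pairs share their libraries and scaling factors, and 27 of the 40 genes have an effective length under 1500 bases. Within the 20S rings, without Psma8, all 91 pairs were above 0, from 0.65 to 0.98. Within the ATPases and non-ATPases all 136 pairs were above 0, and between the rings and the cap the median was 0.69. Psma7 followed the median of the other genes most closely (r = 0.98), then Psma6 (0.95) and Psmd12 (0.94). Psme4 (−0.60) and Psmd5 (−0.40) ran the other way, and Psmd2 (0.08) and Psmd10 (0.09) did not follow it. Without HF.Ctrl 3 and RF.SAAR 2, the mice farthest from their groups, the median over pairs was 0.36 across 10 mice.

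**Figure D3:**
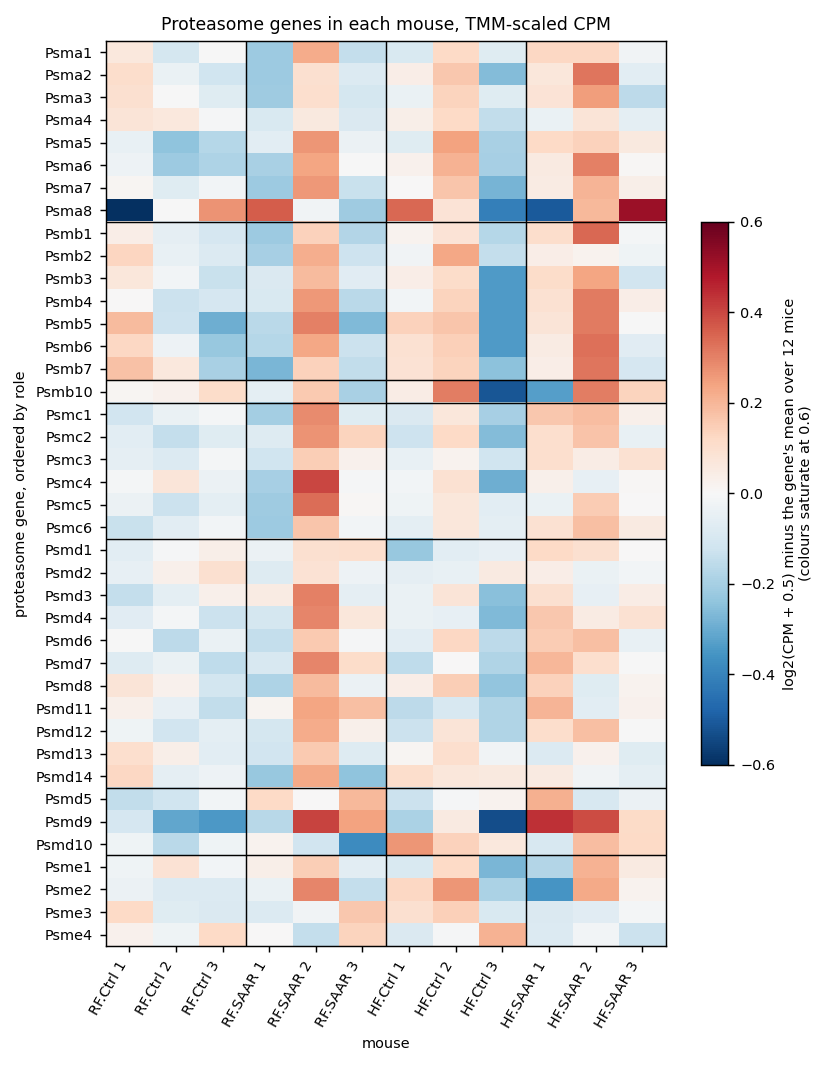
Heat map of the 40 genes (rows, ordered by role) in the 12 mice (columns, grouped by diet), as log2(TMM-scaled CPM + 0.5) minus the mean of the gene over all mice, with colours saturated at 0.6. RF.SAAR 2 is red for 37 of 40 genes and HF.Ctrl 3 blue for 35 of 40, and Psmd9 is above its mean in 5 of the 6 SAAR mice and below it in 5 of the 6 Ctrl mice.

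RF.SAAR 2 was above the mean of the gene for 37 of 40 genes, HF.Ctrl 2 for 34, HF.SAAR 2 for 31 and HF.SAAR 1 for 30, and HF.Ctrl 3 for 5. The median of the genes, as log2 distance from their means, was 0.21 in RF.SAAR 2, against −0.11 and −0.06 in the other RF.SAAR mice. It was −0.19 in HF.Ctrl 3, against −0.02 and 0.12 in the other HF.Ctrl mice. The medians of the comparisons moved with these mice. Without RF.SAAR 2 the median log2 fold change on regular fat was −0.05 in place of 0.05, and over both fat levels 0.01 in place of 0.08. Without HF.Ctrl 3 the median on high fat was 0.02 in place of 0.11, and over both fat levels 0.02. Without HF.Ctrl 2 the median on high fat was 0.19. Without the 2 mice with over 4000 CPM of acinar markers, HF.Ctrl 2 and HF.SAAR 3, it was 0.23, with 0 of 40 called. Over both fat levels the median was then 0.13, with Psmd9 called. With the acinar markers as a covariate and all mice kept, the medians were 0.08 on regular fat, 0.09 on high fat and 0.09 over both. In that fit Psmd9 was the 1 gene called over both fat levels.

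The level of the genes in a mouse moved with mRNA length. The 40 genes have a median effective length of 1114 bases against 2241 for all genes tested. In the 4068 tested genes under 1500 bases, the median distance from the gene means was 0.08 in RF.SAAR 2, 0.12 in HF.Ctrl 2 and 0.13 in HF.SAAR 2, where the proteasome genes were high. It was −0.15 in HF.Ctrl 3 and −0.11 in RF.SAAR 1, where they were low. In the 4639 genes over 3000 bases it had the opposite sign in these 5 mice. Psme4 and Psmd5, which ran against the rest, are the 2 proteasome genes over 3000 bases. Psmd1 and Psmd2, at 2757 and 2667 bases, had r = 0.20 and 0.08 with the median of the others. Psma2, at 2435 bases, had 0.89. The short Psmd10 and Psma8, at 1096 and 1085 bases, had 0.09 and −0.07. The signs differed in HF.SAAR 1, with the proteasome genes at 0.08 and short genes at −0.02. They also differed in RF.Ctrl 1 (−0.006 and 0.052), RF.Ctrl 2 (−0.049 and 0.002), HF.Ctrl 1 (−0.024 and 0.03) and HF.SAAR 3 (−0.001 and 0.005). Over the 12 mice, the proteasome median had r = 0.87 with the short-gene median minus the long-gene median. With a length trend taken out of each mouse, an alternative chosen after seeing the data, the median over pairs was 0.42. The proteasome medians of RF.SAAR 2 and HF.Ctrl 3 were then 0.17 and −0.09. The median log2 fold changes were 0.09 on regular fat, 0.08 on high fat and 0.08 over both. In that fit Psmd9 was still the 1 gene called, with 0.48 (adjusted p = 0.018).

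The size of the difference between diets depended on the scale. As a share of all estimated counts, the 41 proteasome genes, Psmb11 among them, took 0.290% to 0.311% in the 6 control mice. They took 0.331% to 0.389% in the 6 restricted mice, without overlap. Summed TPM of the genes was 2499 to 2962 in control mice and 3364 to 3739 in restricted mice, also without overlap. The share of all genes so placed was not counted on these scales. The alpha ring summed to 684 to 773 TPM in control mice and 891 to 973 in restricted mice. The beta ring summed to 787 to 939 and 1023 to 1176 TPM, and the ATPases to 338 to 426 and 459 to 553. The assembly chaperones summed to 32.7 to 35.8 and 46.4 to 56.2 TPM, most of it from Psmd9 (17.6 to 19.5 and 28.5 to 36.2). The other chaperones overlapped, with Psmd5 at 7.71 to 11.6 and 8.04 to 17.4 TPM and Psmd10 at 5.79 to 7.30 and 6.16 to 8.93. The activators overlapped, at 170 to 198 and 189 to 251 TPM. The rest of the transcriptome shifted on the same scales. Without composition factors, the median of all genes was 0.16 higher in restricted mice over both fat levels and that of the proteasome genes 0.25. There 20 of 40 were called, where 17.69% of all genes were. On deposited TPM, tested with limma, the medians were 0.25 and 0.38, and 32 of 40 were called, where 26.19% of all genes were. By that test 6 were called on regular fat and 26 on high fat, where 3.86% and 12.21% of all genes were. Relative to the median of all genes, the proteasome genes were 0.09 higher by either count scale, TMM or library size, and 0.13 higher by TPM. Of the 1018 genes called over both fat levels on the TMM scale 474 were higher, against 2201 of 2471 on library size and 3528 of 3659 on TPM. The TMM factors ran from 0.863 to 0.9995 in control mice and from 0.981 to 1.11 in restricted mice.

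**Figure D4:**
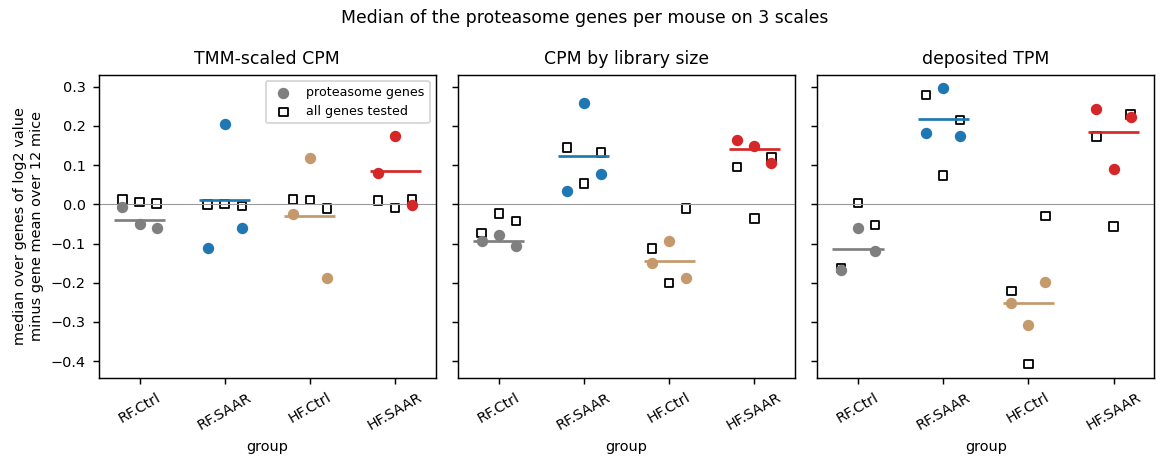
Median over genes of log2 value minus the mean of each gene, on TMM-scaled CPM, CPM by library size and deposited TPM. Filled circles are the proteasome genes, a point for each mouse, with a line at the group mean. Open squares are the tested genes that were above 0 in every mouse on both CPM and TPM. On TMM-scaled CPM the groups overlap, while on the other 2 scales all SAAR mice are above all Ctrl mice and the open squares are also higher in most SAAR mice.

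Genes that work with the proteasome were taken from lists written with earlier results of these data known. Of 15 assembly factors and associated proteins, 2 were called higher and 0 lower with both fat levels averaged (median −0.06), where 3.39% of all genes were called higher and 3.89% lower. Adrm1, the ubiquitin receptor Rpn13 of the cap, stood at 64.4, 61.2 and 59.2 CPM in RF.Ctrl mice and 75.6, 98.1 and 79.5 in RF.SAAR mice. On high fat it stood at 66.7, 76.2 and 51.9 CPM in HF.Ctrl and 85.4, 75.4 and 74.4 in HF.SAAR. The regular-fat groups did not overlap and the high-fat groups did, with an averaged log2 fold change of 0.36 ± 0.10 (adjusted p = 0.041, edgeR). Zfand5, which binds the proteasome and raises its activity, stood at 44.2 to 49.4 CPM in RF.Ctrl mice, 56.5 to 61.1 in RF.SAAR mice, 51.0 to 62.3 in HF.Ctrl and 67.0 to 70.5 in HF.SAAR. Each restricted group was above its own control group, with 0.30 ± 0.07 (adjusted p = 0.015).

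Of the 12 genes around Nfe2l1 and Nfe2l2, 1 was called higher and 0 lower (median −0.02), a share near the 7.29% of all genes called. Nfe2l1 itself stood at 88.5, 94.3 and 82.1 CPM in RF.Ctrl mice and 108.3, 114.0 and 115.3 in RF.SAAR mice. On high fat it stood at 105.1, 76.8 and 91.7 CPM in HF.Ctrl and 116.8, 104.2 and 103.2 in HF.SAAR. The regular-fat groups did not overlap, and HF.Ctrl 1 lay among the HF.SAAR mice. Its averaged log2 fold change was 0.30 ± 0.08 (adjusted p = 0.044). With offsets for effective length it was 0.15 (adjusted p = 0.59), and the call was lost when any mouse but HF.Ctrl 1 was left out (0.24 to 0.35). Adrm1 and Zfand5 were also not called with these offsets (adjusted p = 0.052 and 0.082), and Adrm1 was called in 2 of 12 fits with a mouse left out, those without RF.SAAR 1 or HF.Ctrl 2. Zfand5 was called in all 12 such fits. Without the 2 acinar-rich mice together, Zfand5 and Nfe2l1 were not called (adjusted p = 0.058 and 0.082). Bach1, a repressor at such elements, had −0.33 ± 0.10 (adjusted p = 0.058).

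**Figure D5:**
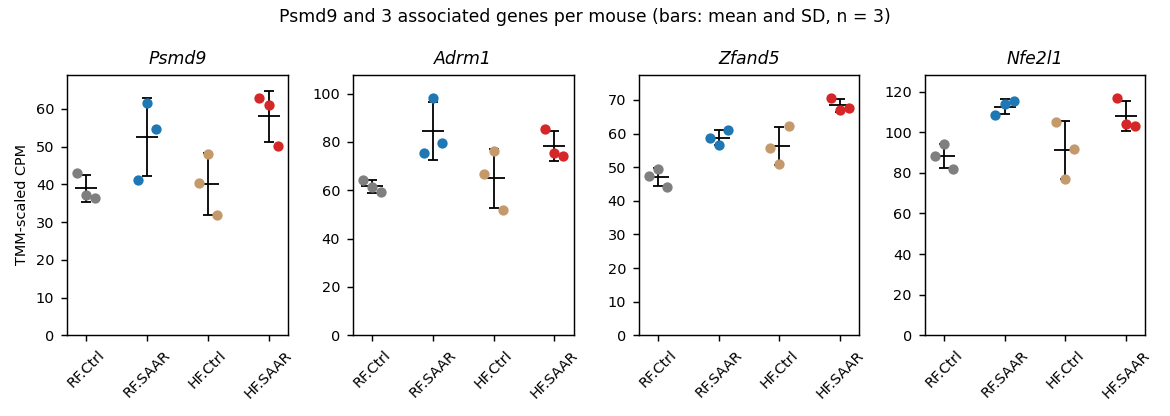
TMM-scaled CPM of Psmd9, Adrm1, Zfand5 and Nfe2l1 in each mouse by group, with the mean and SD of 3 mice as bars and each axis from 0. The restricted groups have the higher mean at both fat levels in all 4 genes, and Zfand5 is the gene whose restricted groups lie wholly above their controls at both.

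With both fat levels averaged, 0 of 6 shuttle factors that carry tagged proteins to the proteasome were called (4 at an unadjusted p under 0.05). Of all 13970 genes, 7.29% were called and 2908 had such a p. Ubqln4 had 0.23 ± 0.07 (adjusted p = 0.062). Of 9 genes of the inducible proteasome and class I antigen processing, 0 were called (2 at an unadjusted p under 0.05). Psmb9 had −0.38 ± 0.12 (adjusted p = 0.090) and Psmb8 −0.09 ± 0.11 (adjusted p = 0.73). Tapbp, which loads peptides on class I molecules, had 0.20 ± 0.07 (adjusted p = 0.12).

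Of 20 genes of autophagy, the other route of bulk protein breakdown, 3 were called higher and 2 lower (median −0.03), where 3.39% and 3.89% of all genes were. Gabarapl1, a protein of the autophagosome membrane, stood at 411 to 459 CPM in RF.Ctrl mice and 603 to 618 in RF.SAAR mice. On high fat it stood at 496 to 579 CPM in controls and 674 to 732 in restricted mice. All 6 restricted mice were above all 6 controls, with 0.42 ± 0.06 (adjusted p = 0.0013). It was also called on regular fat alone, at 0.49 ± 0.09 (adjusted p = 0.014). Sqstm1, the cargo receptor p62 that binds tagged proteins, had 0.31 ± 0.07 (adjusted p = 0.022), and Map1lc3b, the LC3 protein it binds, had 0.35 ± 0.08 (adjusted p = 0.022). The genes called lower were Gabarapl2, at −0.30 ± 0.08 (adjusted p = 0.030), and Atg5, at −0.29 ± 0.07 (adjusted p = 0.024). Gabarapl1 was called in all 12 fits with a mouse left out. Sqstm1 was not called without RF.Ctrl 1, RF.Ctrl 3, HF.Ctrl 1 or HF.SAAR 1, and Map1lc3b without RF.Ctrl 2, RF.Ctrl 3, HF.Ctrl 1 or HF.SAAR 1 (log2 fold changes of 0.27 to 0.35 and 0.30 to 0.42). Gabarapl2 was called in the fits without RF.SAAR 3, HF.Ctrl 3 or HF.SAAR 2 alone, and Atg5 was not called without RF.Ctrl 3, RF.SAAR 1, RF.SAAR 3, HF.Ctrl 1, HF.Ctrl 3 or HF.SAAR 3. Without the 2 acinar-rich mice, Sqstm1 (adjusted p = 0.071), Gabarapl2 (0.13) and Atg5 (0.069) were not called, and Map1lc3b was not called with offsets for effective length (adjusted p = 0.071). Both lower calls were also lost on library size alone (−0.14 and −0.13) and on TPM (−0.02 and 0.01).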

How the data were processed

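Liver RNA of 12 mice was measured after selection of polyadenylated RNA and paired-end sequencing. Per the methods, the authors ran cutadapt for trimming and kallisto for pseudoalignment to Ensembl mouse transcripts. The deposited files hold estimated counts per transcript, TPM scaled by the authors to a fixed sum per mouse, and effective lengths, with no normalization between mice and no pooling. Transcripts were matched by identifier to GENCODE M21 (GRCm38), 116816 of 118489, and the 1.08% of counts without a match were left out. Counts were summed per gene, rounded and filtered at a mean of 10 or more. edgeR 4.0.16 (R 4.3.3) was fitted with TMM factors and robust quasi-likelihood F-tests over all 12 mice with a coefficient per group. Values tested are thus relative to the bulk of genes. CPM of single genes are scaled to TMM-adjusted library size. CPM of the cell type markers and the limit for acinar-rich mice are scaled to library size alone. limma 3.58.1 was used on log2(TPM + 0.5) and DESeq2 1.42.0 with filtering for an adjusted p of 0.05. The edgeR fit was tested on simulated counts with known fold changes. Estimated counts are not independent molecules, so precision came from the spread between mice.

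The members and gene lists were chosen with earlier results of these data known. Named are genes called in any comparison, in each role the 2 with the smallest p for restriction at each fat level and those of highest and lowest TPM, the cutting subunits, Psmb10 and the activators, and in each list the called genes or the 2 of smallest p. Psmc6, Psmd2, Psmd12, Psmd13, Psmd14 and Psmb8 were named after their values were seen. Some genes of the lists are not reported here. Groups follow the labels, whose diet and fat fields are exchanged. Alternatives were RLE or library-size scaling, other filters, length offsets, protein-coding transcripts alone, the compared groups alone, DESeq2, an acinar covariate, and leaving out acinar-rich or single mice. TPM with limma and length-trend offsets were added after seeing the data. Replicate numbers follow the order of the samples and were not used to pair mice.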

Additional observations from a re-analysis of the deposited data

How the results depend on the processing

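The count of called proteasome genes and their median log2 fold change for restriction moved with the scale. On library size alone 1 gene was called on regular fat, 1 on high fat and 20 over both, with medians of 0.21, 0.28 and 0.25. Of all genes, 3.1%, 5.21% and 17.69% were called on that scale. On deposited TPM with limma 6, 26 and 32 were called, where 3.86%, 12.21% and 26.19% of all genes were. The medians on TPM were 0.31, 0.45 and 0.38, and HF.Ctrl vs. RF.Ctrl had a median of −0.14. There Psmb2 (0.27) and Psmb7 (0.29) became called and higher, and Atg5 stood at 0.0094. Over all genes, 219, 292 and 1018 calls became 433, 728 and 2471 on library size, 539, 1706 and 3659 on TPM, 614, 617 and 1392 with DESeq2, and 359, 465 and 1354 with length-trend offsets. Fits of the compared groups alone gave 137 and 185 calls within fat levels, and fits without acinar-rich mice 141 on high fat. DESeq2 called 2 proteasome genes over both fat levels, Psmd9 and Psmd11. With the acinar covariate the median of HF.SAAR vs. RF.SAAR was −0.03 in place of 0.05, and that of the interaction 0.01 in place of 0.05. With length-trend offsets these medians were −0.006 and −0.01, and without acinar-rich mice 0.06 and 0.13. Leaving out each mouse in turn gave 0 to 1 called over both fat levels and 0 in the other 5 comparisons. The medians then ran from −0.05 to 0.11 on regular fat, 0.02 to 0.19 on high fat, 0.01 to 0.12 over both, −0.07 to 0.09 for HF.Ctrl vs. RF.Ctrl, −0.002 to 0.15 for HF.SAAR vs. RF.SAAR and −0.02 to 0.14 for the interaction. Of 3124 values of single genes under alternatives, 2943 kept their direction or stayed uncalled, 67 lost a call, 111 gained one and 3 turned; 132 uncalled values changed sign. The causes of these changes were not tested. The labels give no replicate numbers. Sample titles are numbered in sequence, with a mouse of each group in each successive set. RF.SAAR 2, HF.Ctrl 2 and HF.SAAR 2, where the proteasome genes were high, share a set with RF.Ctrl 2, where 9 of 40 were above their means. The labels do not say whether such a set was handled together, and no paired analysis was made. With 3 mice a group, changes the size of these medians lie within the intervals of single genes.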
